A study of Mus musculus with 24 samples.

Results

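The ABC transporters and ion pump ATPases were taken as every gene of the table whose symbol begins with ABCA to ABCG and a number, or with ATP1A, ATP1B, ATP2A, ATP2B, ATP2C, ATP6A, ATP6V, ATP7, ATP8, ATP9 or ATP10A to ATP13A, leaving out ATP1B1. This gave 55 of 7493 genes, 22 of them ABC genes and 33 ATPase genes. Their RNA was measured by bulk sequencing in 8 tissues (brain, heart, aorta, lung, liver, kidney, stomach and spleen), with 3 libraries per tissue and 24 in all. Every library came from SENCR-BAC transgenic mice, which carry human SENCR, a long non-coding RNA gene of vascular cells, on a bacterial artificial chromosome. The sample titles read SENCR-BAC, while the library names begin with SR-KI, letters that the labels do not explain. No group without the transgene is among the labels, so all comparisons are between tissues of transgenic animals. The sources used here give no strain, age, sex or insertion site. They also do not say which libraries share an animal, and the p-values measure only how far these libraries spread, which may be partly technical.

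ABC transporters bind ATP on paired cytosolic domains and use its hydrolysis to move lipids, sterols, bile components, organic anions or peptides across a membrane, although subfamilies E and F lack membrane domains and act on ribosomes. P-type ATPases pass a phosphate from ATP to an aspartate of their own chain while they pump sodium and potassium (Na,K-ATPase), calcium (SERCA in the endoplasmic reticulum, PMCA in the plasma membrane, SPCA in the Golgi), copper, or, as flippases, phospholipids. The V-type ATPase is a rotary proton pump that acidifies lysosomes, synaptic vesicles and, in the kidney collecting duct, the urine. Tissues are known to differ in the isoforms they use: PMCA2 in neurons, SERCA1 in fast skeletal muscle, SERCA2 in heart, and ABCB4 at the bile canaliculus of the liver.

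Levels were FPKM, which divides a gene's fragments by its length and by the library's size. The submitters' processing notes name a human genome build, on which a mouse gene is seen only through stretches like the human gene, so levels were compared between tissues within a gene and not between genes. Depth was 185724 to 628043 assigned reads per library, with the deepest libraries in brain (mean 591490 reads) and the shallowest in liver (mean 197569). A count of 0 in a library allows up to 3 reads, and such limits cover counting error only. Of the 55 genes, 27 reached 1 FPKM in at least 3 libraries and were tested, 9 ABC and 18 ATPase genes, or 49.1% against 56.9% of all genes of the table. The 28 others had 1 to 25 reads over the 24 libraries, 16 of them a single read, and are accounted for by count within each group below.

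Except for aorta, the summed markers of each tissue were higher in every library of that tissue than in any other library. Smooth muscle markers summed to 246 to 331 FPKM in aorta and overlapped those of stomach at 196 to 256 FPKM. Neuronal markers summed to 6019 to 7232 FPKM in brain and to at most 42.7 FPKM in any other library, and kidney tubule markers to 1011 to 1978 FPKM in kidney against at most 9.36 FPKM elsewhere. The marker lists were thin for lung (2 of 7 genes in the table), spleen (3 of 8, with CD3E at 0) and stomach (2 of 9, summing to 0.918 to 11.5 FPKM), and APOB, SERPINA1 and TTR were at 0 in liver. Lung libraries also held cardiomyocyte genes (925 to 1240 FPKM summed) and fast skeletal muscle genes (43.0 to 131 FPKM). Glial genes reached 26.5 to 97.7 FPKM in aorta, overlapping, among others, stomach (16.2 to 54.3 FPKM) and heart (11.2 to 38.7 FPKM). Aorta replicates 1 and 3 stood apart in reads of 13 mitochondrially encoded genes, with 363 and 216 against 1 to 19 in each other library, and aortic results are given without them where that ends a call. In bulk tissue, fewer cells of a type and less RNA per cell cannot be told apart.

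Brain had the most pump and transporter genes at a high level. Of the 27 tested genes, 12 had their highest mean in brain (44.4%, against 24.2% of all tested genes), 5 in kidney, 4 in liver, 3 in lung and 3 in stomach, and none in aorta, heart or spleen. A moderated F test over the 8 tissues (limma) passed for 24 of the 27 genes, beside a background of 77.6% of all 4260 tested genes. The 3 that did not pass were ABCB6 (adjusted p = 0.241), ATP6V1E1 (adjusted p = 0.858) and ATP6V1G1 (adjusted p = 0.0803). Each tissue was then compared with the mean of the other 7. A gene counted as called when its adjusted p was under 0.05 and its log2(FPKM + 1) differed by 1 or more. This scale understates the change of low genes.

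**Figure D1:**
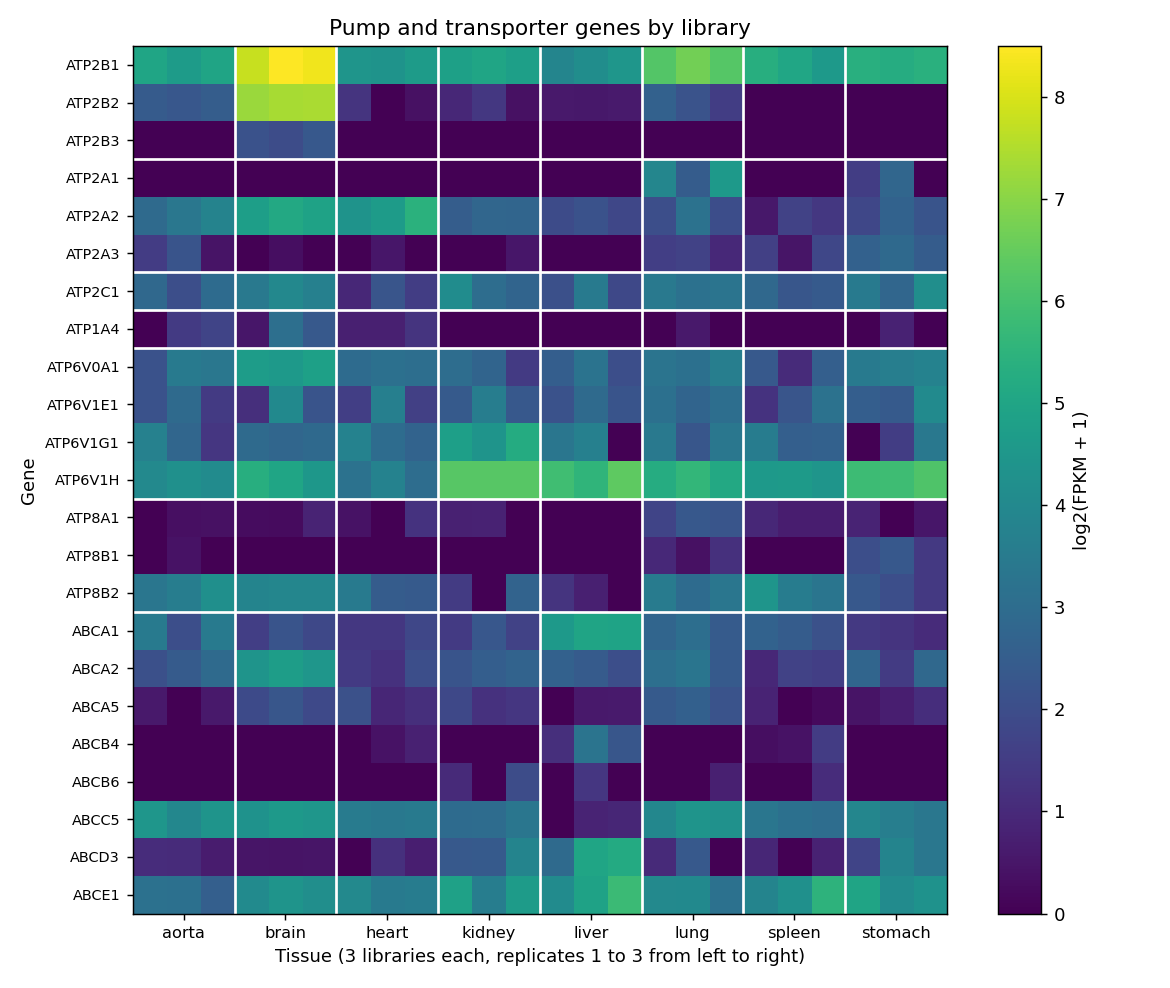
Level of 23 of the 27 tested genes (vertical axis) in each of the 24 libraries (horizontal axis, 3 per tissue) as log2(FPKM + 1), shown by colour; white lines separate tissues and gene groups. ATP2B1 and ATP2B2 are highest in the 3 brain libraries, and ATP2B3 is above 0 in brain alone.

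In brain 11 of the 27 genes were called higher (background 23.9%) and 1 lower (background 10.5%). Liver had 5 higher (background 9.81%) and 8 lower (background 17.3%), and heart 2 higher (background 6.41%) and 7 lower (background 17.4%). Kidney had 5 higher (background 9.77%) and 2 lower (background 8.12%), and stomach 4 higher (background 7.65%) and 3 lower (background 5.87%). Lung had 4 higher (background 11.9%) and 1 lower (background 3.64%), aorta 3 higher (background 9.58%) and 3 lower (background 8.19%), and spleen 1 higher (background 11.5%) and 6 lower (background 13.5%). The median difference of the 27 genes was 0.13 in brain, where that of all tested genes was -0.02, and -0.56 in liver, where that of all tested genes was -0.33. These counts describe the 27 genes, which were not tested as a group against the background.

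**Figure D2:**
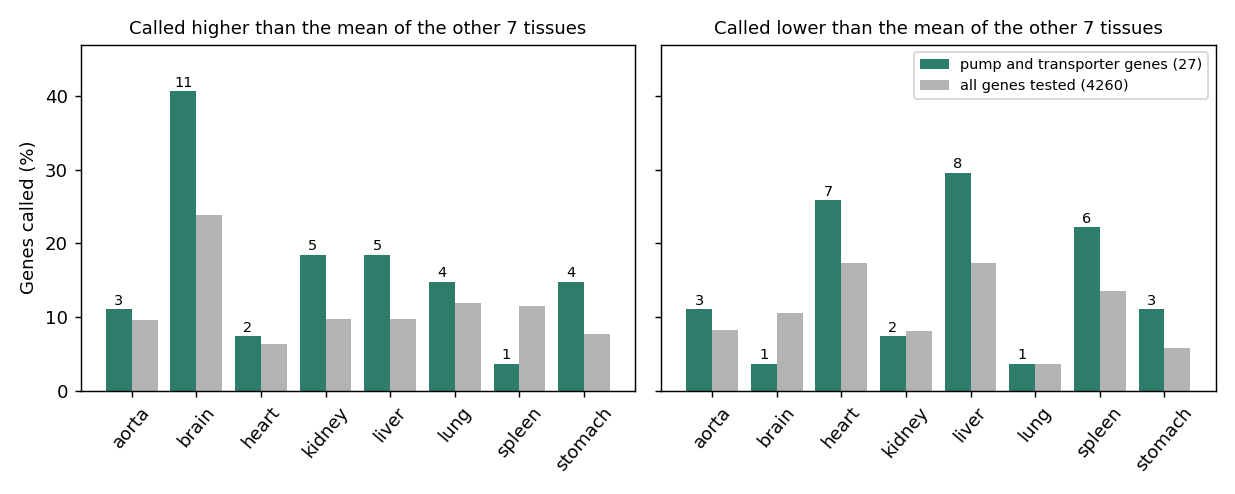
Percent of genes called higher (left panel) and lower (right panel) in each tissue than the mean of the other 7, for the 27 tested pump and transporter genes (green, with their number above the bar) and for all 4260 tested genes (grey). The tallest green bar is the 11 genes higher in brain, and the next is the 8 genes lower in liver.

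A gene was further described as elevated where it was called higher than each of the other 7 tissues in pairwise contrasts. There were 13 such genes (background 24.1%), among them ABCA2, ATP2B1, ATP2B2 and ATP2B3 in brain, ATP2A1 and ATP8A1 in lung, ABCA1 and ABCB4 in liver, and ATP2A3 and ATP8B1 in stomach. Of the 27 genes, 6 passed the filter only through the tissue in which they were then called higher, among them ATP2B3, ATP2A1, ATP8A1, ATP8B1 and ABCB4. They had to be high there, so their differences are given as a description without a p, and the counts above that include them support nothing about the group. ABCC5 in liver was the 1 gene called lower than each of the other 7 (background 4.67%). Of the 66 calls of a gene in a tissue, 43 were kept in every fit that left out 1 library and still tested the gene. They include ATP2B3 in brain, tested in 21 of 24 such fits, since no fit without a brain library tested it. None of the 66 calls changed direction under any alternative tried. A pseudocount of 5 in place of 1 ended 42 of the 66 calls, and this setting is not named again at each gene. The 24 calls it left include brain ATP2B1, ATP2B2, ATP2A2, ABCA2 and ATP6V0A1, liver ABCA1, ABCD3, ABCC5 and ATP8B2, and kidney ATP6V1G1 and ATP6V1H.

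Of the plasma membrane calcium pumps of the table, ATP2B1 and ATP2B2 were elevated in brain (background 24.1% for elevation in any 1 tissue). The third, ATP2B3, passed the filter only through brain, so its place there is a description. These pumps export calcium from the cytosol, and PMCA2 and PMCA3 are the isoforms known from neurons. Promoters of the pair with the most reads are shown because the genes were elevated together, 250 bases before to 50 after a transcription start, from RefSeq (GRCm38.p6). Capitals mark matches, on either strand, to any of 4 motifs. The GC box was searched for by the letters GGGCGG, and its neighbouring matches may overlap each other. The other motifs searched for were the TATA box by the letters TATAAA, the E-box by the letters CACGTG and the CCAAT box by the letters of its name. The most upstream of the starts in the table is shown for each gene, Atp2b1 at chr10:98914392-98914691 on the + strand and Atp2b2 at chr6:114042031-114042330 on the - strand.
Atp2b1: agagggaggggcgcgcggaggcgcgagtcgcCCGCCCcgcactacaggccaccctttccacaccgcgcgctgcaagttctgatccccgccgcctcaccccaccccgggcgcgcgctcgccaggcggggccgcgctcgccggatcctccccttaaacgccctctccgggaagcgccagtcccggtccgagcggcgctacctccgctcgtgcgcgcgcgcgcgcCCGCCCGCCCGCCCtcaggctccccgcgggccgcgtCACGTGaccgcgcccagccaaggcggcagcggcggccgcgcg
Atp2b2: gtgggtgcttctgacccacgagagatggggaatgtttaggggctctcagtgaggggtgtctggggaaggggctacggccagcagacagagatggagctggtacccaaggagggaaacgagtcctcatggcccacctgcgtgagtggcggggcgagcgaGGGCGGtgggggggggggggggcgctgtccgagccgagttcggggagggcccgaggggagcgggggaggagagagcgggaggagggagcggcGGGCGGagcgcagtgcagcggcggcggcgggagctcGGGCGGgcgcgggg
Both windows hold GC boxes, 4 in Atp2b1 and 3 in Atp2b2, and Atp2b1 also holds 1 E-box. Neither holds these TATA or CCAAT letters, which says nothing of the factors that bind there. Promoters were matched for 34 of the 55 genes, 46 windows in all, of which 65.2% held a GC box against 35.7% of 32851 promoters of the table, 19.6% a CCAAT box against 37.4%, 15.2% a TATA box against 13.6% and 13% an E-box against 7.15%.

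ATP2B1, the broadly expressed PMCA1, was at 222, 361 and 316 FPKM in the brain libraries, on 1001, 1799 and 1456 reads. The next tissue was lung with 74.0, 102 and 75.2 FPKM, and the means of the other 6 tissues ran from 17.2 ± 3.87 FPKM in liver to 39.7 ± 1.99 FPKM in stomach (SD, n = 3). The brain libraries all lay above every other library, and the lung libraries above those of the remaining 6 tissues. The brain difference was 3.19 ± 0.16 (SE, adjusted p = 4.92e-13, limma) and the lung difference 1.12 ± 0.16 (adjusted p = 2.43e-05). ATP2B1 was called lower in liver (-1.43, adjusted p = 4.93e-07) and heart (-1.05, adjusted p = 2.62e-05). The brain libraries enter the mean of the other tissues, and without them the differences were -0.99 in liver and -0.61 in heart, neither of them called. The heart difference was also under 1 without heart replicate 2 (-0.99) and with TPM scaling, and the lung difference without lung replicate 2 (0.97) and with median-ratio scaling (0.88).

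ATP2B2, or PMCA2, stood at 147, 167 and 172 FPKM in brain on 845 to 1063 reads per library. Aorta followed with 4.39, 4 and 4.64 FPKM, on 17 to 19 reads per library, and lung with 5.26, 3.46 and 1.89 FPKM. Spleen and stomach had no read of ATP2B2 in any of their 6 libraries, which allows up to 0.788 and 1.12 FPKM in a library. The lowest brain library lay far above the highest library of any other tissue, and the brain difference of 6.41 ± 0.25 (adjusted p = 6.23e-15) was the largest of the 27 genes in any tissue. ATP2B2 was called lower in spleen and stomach (both -1.98, adjusted p = 2.39e-06 and 4.49e-06), in heart (-1.36, adjusted p = 0.000174) and in liver (-1.32, adjusted p = 0.000196). Without the brain libraries the heart and liver differences were -0.45 and -0.42 and were not called, and the liver call was also lost with a pseudocount of 0.1 (adjusted p = 0.0864) and with voom on recovered reads (adjusted p = 0.14).

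ATP2B3, or PMCA3, had 19, 18 and 23 reads in the brain libraries, or 3.43, 2.94 and 4.06 FPKM, and no read in the other 21 libraries. A library of another tissue could hold up to 0.682 FPKM in lung and 1.62 FPKM in liver without a read. The brain difference was 2.15 ± 0.09, a description, since ATP2B3 entered the test through brain alone. Mouse Atp2b2 and Atp2b3 transcripts share an identical stretch of 56 bases at most, so some reads of the one could have been counted for the other. Of their 50-base stretches, 0.0734% in Atp2b2 and 0.145% in Atp2b3 were shared. Likeness of the mouse transcripts to the human paralogs was not measured.

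The 3 SERCA pumps, which refill the endoplasmic reticulum with calcium, had different leading tissues. ATP2A2 was led by brain and heart, ATP2A3 by stomach and ATP2A1 by lung. Mouse Atp2a1 and Atp2a3 transcripts share an identical stretch of 53 bases at most.

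ATP2A2, the SERCA2 of heart and most other cells, was at 26.1, 34.3 and 28.6 FPKM in brain and at 19.6, 24.4 and 42.3 FPKM in heart. The next tissue was aorta at 6.68, 9.24 and 13.1 FPKM, below every brain and heart library. Spleen was lowest at 0.461, 2.19 and 1.59 FPKM. Brain and heart overlapped and did not differ beyond their spread (0.11, adjusted p = 0.88), while heart exceeded aorta by 1.45 (adjusted p = 0.0048). The difference from the mean of the other tissues was 2.26 ± 0.28 in brain (adjusted p = 6.99e-07) and 2.14 ± 0.28 in heart (adjusted p = 4.16e-06). ATP2A2 was called lower in spleen (-2.01, adjusted p = 9.12e-06) and in liver (-1.13, adjusted p = 0.00233), the latter lost without the brain libraries (-0.83) and with voom on recovered reads (adjusted p = 0.101).

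ATP2A3, the SERCA3 of epithelial, blood and platelet lineages, was highest in stomach with 5.28, 6.50 and 4.58 FPKM on 8 to 14 reads per library. Lung had 2.01, 2.18 and 0.962 FPKM, aorta 1.86, 3.59 and 0.372 FPKM and spleen 2.06, 0.401 and 2.54 FPKM, all below the lowest stomach library. Brain, heart and kidney had 1 read each and liver none. The stomach difference was 2.03 ± 0.28 (adjusted p = 1.78e-05). The lower call in liver (-1.03, adjusted p = 0.00526) fell under a difference of 1 without aorta replicate 2 (-0.98), and just under it without spleen replicate 3.

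ATP2A1, the SERCA1 of fast skeletal muscle, had 23, 8 and 39 reads in lung, or 14.1, 4.54 and 22.8 FPKM. Stomach had 1.93, 5.94 and 0 FPKM, so that its highest library overlapped the lowest lung library, and the other 18 libraries had no read, heart included. The lung difference was 3.45 ± 0.36, a description, since only 2 libraries outside lung reached 1 FPKM. Fast skeletal muscle genes moved with it library by library: their summed level was 55.2, 43.0 and 131 FPKM in lung replicates 1, 2 and 3, and 12.04, 57.2 and 1.20 FPKM in stomach replicates 1, 2 and 3. In lung, 8 of the 10 skeletal muscle genes measured had reads, TNNI2 and RYR1 being at 0, and the list reached 25.0 to 42.6 FPKM in heart, where 7 of its genes were at 0. The part of such muscle RNA in the ATP2A1 result was not tested.

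**Figure D3:**
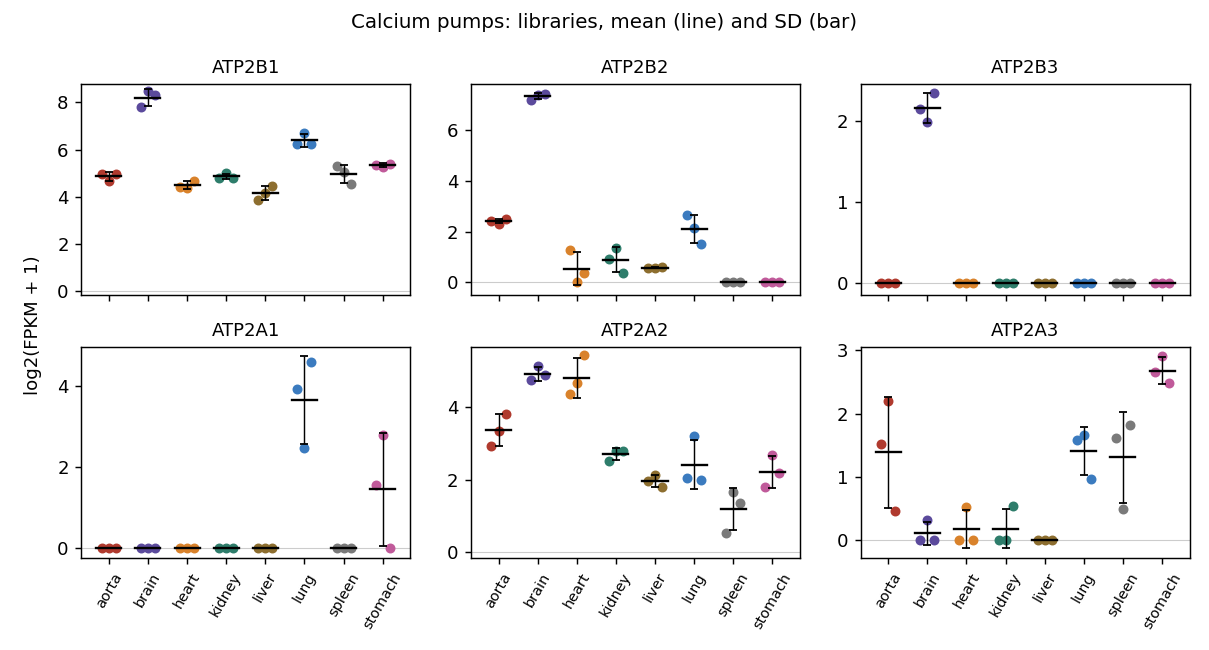
Level of the 3 plasma membrane and the 3 endoplasmic reticulum calcium pumps in each tissue as log2(FPKM + 1), with a point per library, a line at the mean and a bar of 1 SD. ATP2B1, ATP2B2 and ATP2B3 peak in brain, ATP2A2 in brain and heart, and ATP2A1 in lung, and the vertical scale differs between panels.

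ATP2C1, the SPCA1 that loads the Golgi with calcium and manganese, was called in heart alone among the 8 tissues. Heart libraries had 0.931, 3.68 and 1.89 FPKM against means of 4.86 to 12.1 FPKM elsewhere, a difference of -1.49 ± 0.35 (adjusted p = 0.00166). Heart was next to spleen, liver and aorta in the order of levels, and it did not differ from liver, its nearest neighbour, beyond the spread (adjusted p = 0.16).

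Of the 6 sodium pump genes of the table, 4 alpha genes were tested and the beta genes ATP1B2 and ATP1B3 were not. Na,K-ATPase expels sodium and takes up potassium. Its alpha subunit carries the pump, and beta subunits bring it to the membrane.

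ATP1A4, the alpha gene known from sperm, was called higher in brain (1.64 ± 0.36, adjusted p = 0.000653), on 1, 20 and 10 reads or 0.422, 7.63 and 4.13 FPKM. Aorta, with 0, 1.71 and 2.37 FPKM, overlapped brain, and brain did not exceed it beyond the spread (0.93, adjusted p = 0.12). The ATP1A4 value is uncertain, because the gene shares identical stretches with paralogs, whose reads could have been counted for it. Of the untested beta genes, ATP1B2, a glial adhesion molecule as well as a pump subunit, had 2, 3 and 2 reads in brain, or 1.01, 1.37 and 0.986 FPKM, and 3 reads in all other tissues together. ATP1B3 had 1 read in aorta and 1 in liver.

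V-ATPase genes were thinly covered. Of 12 in the table, 4 were tested, and the other 8, ATP6V0C, ATP6V0D1, ATP6V0E1, ATP6V1A, ATP6V1B2, ATP6V1C1, ATP6V1F and ATP6AP2, had 1 to 6 reads each over 24 libraries. The tested subunits had their highest means in different tissues: ATP6V0A1 in brain, ATP6V1H and ATP6V1G1 in kidney, and ATP6V1E1, called in no tissue, in stomach. Whether their patterns differ was not tested, and ATP6V1G1 and ATP6V1E1 did not pass the F test over tissues.

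ATP6V1H, a regulatory subunit of the cytosolic V1 sector, was at 76.6, 78.0 and 76.8 FPKM in kidney on 60 to 64 reads per library. Liver had 57.8, 46.5 and 83.8 FPKM and stomach 55.5, 56.4 and 71.0 FPKM, and heart was lowest with 8.19, 12.7 and 7.13 FPKM. Kidney and liver overlapped (0.34, adjusted p = 0.37), while the heart libraries lay below all others. ATP6V1H was called higher in kidney (1.40 ± 0.18, adjusted p = 3.46e-06), liver (1.02, adjusted p = 8.96e-05) and stomach (1.01, adjusted p = 0.000207). It was called lower in heart (-1.97 ± 0.18, adjusted p = 2.68e-08) and aorta (-1.07, adjusted p = 8.76e-05). The liver difference was under 1 without brain replicate 3 (0.99), heart replicate 3 (1.00 when rounded) or liver replicate 3 (0.79). The stomach difference was under 1 without brain replicate 3 (0.98), heart replicate 3 (0.99), liver replicate 2 (0.99), lung replicate 3 (1.00 when rounded) or stomach replicate 3 (0.90). Median-ratio scaling ended the liver (0.96), stomach (0.85) and aorta (-0.93) calls, TPM scaling that of stomach (0.90), and leaving out aorta replicates 1 and 3 together those of aorta (-0.91), stomach (0.99) and liver (1.00 when rounded).

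ATP6V0A1, the a1 subunit of the membrane sector that is known from synaptic vesicles, was at 25.0, 22.9 and 27.5 FPKM in brain. Stomach followed with 10.3, 11.5 and 12.7 FPKM, and spleen was lowest with 4.24, 1.05 and 4.97 FPKM. The brain libraries lay above all others, with a difference of 1.84 ± 0.33 (adjusted p = 9.02e-05), although brain against stomach alone did not pass (1.06, adjusted p = 0.058). The lower call in spleen (-1.25, adjusted p = 0.00473) was lost without spleen replicate 2 (-0.77).

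ATP6V1G1, a stalk subunit, was at 27, 19.9 and 36.8 FPKM in kidney on 14, 10 and 20 reads. No other library exceeded 12.6 FPKM, so kidney did not overlap the rest, and the difference was 2.15 ± 0.63 (adjusted p = 0.0117). That call was lost without kidney replicate 3 (1.94, adjusted p = 0.0717) and with a pseudocount of 0.1 (adjusted p = 0.0819), and the F test over tissues did not pass. ATP6V1E1, another stalk subunit, was at 3.92 to 8.32 FPKM in mean over the tissues with SDs of 1.06 to 7.64 FPKM, on 80 reads in all. Its largest difference, 0.53 ± 0.53 in stomach, was no larger than its error.

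**Figure D4:**
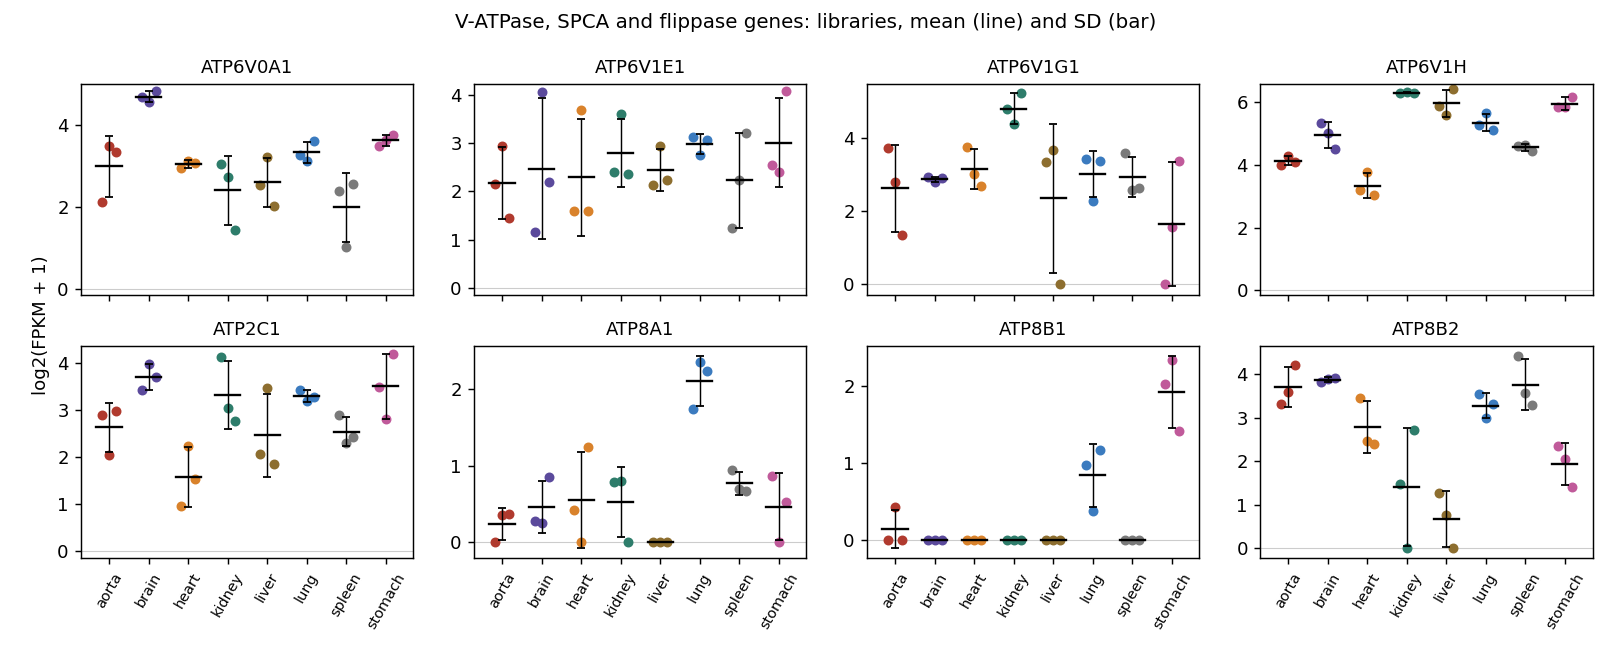
Level of the 4 tested V-ATPase genes, ATP2C1 and the 3 tested flippase genes in each tissue as log2(FPKM + 1), with a point per library, a line at the mean and a bar of 1 SD. ATP6V0A1 is highest in brain, ATP6V1H and ATP6V1G1 in kidney, ATP8A1 in lung and ATP8B1 in stomach, while the ATP6V1E1 libraries of all tissues overlap.

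Flippases move phospholipids to the cytosolic leaflet of a membrane, and 3 of their 4 genes were tested. ATP8A1, which carries phosphatidylserine, was at 2.33, 4.09 and 3.72 FPKM in lung on 9, 17 and 15 reads, above every other library, the next being heart replicate 3 at 1.36 FPKM. Its lung difference was 1.68 ± 0.23, a description, since 1 library outside lung reached 1 FPKM. ATP8B1, known as the gene of a familial cholestasis, had 6, 9 and 3 reads in stomach, or 3.08, 4.06 and 1.67 FPKM. The lung libraries followed with 0.302 to 1.25 FPKM, below the lowest stomach library, aorta had 1 read, and the other 5 tissues, liver included, had none. Its stomach difference was 1.79 ± 0.16, a description, since 1 library outside stomach reached 1 FPKM, and a liver library could hold up to 2.32 FPKM of ATP8B1 without a read.

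ATP8B2 was spread over more tissues. It was at 13.1, 13.9 and 14.1 FPKM in brain, 20.6, 10.9 and 8.85 FPKM in spleen and 9, 11.1 and 17.7 FPKM in aorta, and at 1.43, 0.695 and 0 FPKM in liver and 1.80, 0 and 5.59 FPKM in kidney. Brain, spleen and aorta overlapped, and every library of theirs lay above every liver and kidney library. ATP8B2 was called lower in liver (-2.29 ± 0.39, adjusted p = 8.18e-05) and kidney (-1.46, adjusted p = 0.00668), and higher in brain (1.37, adjusted p = 0.00643), spleen (1.24, adjusted p = 0.015) and aorta (1.18, adjusted p = 0.0241). The 3 higher calls were lost with a pseudocount of 0.1 (adjusted p = 0.0651 to 0.121). Leaving out kidney replicate 2 (-0.76), spleen replicate 1 (0.91), aorta replicate 2 (adjusted p = 0.0658) or aorta replicate 3 (0.93) ended the call of that tissue, as did leaving out aorta replicates 1 and 3 together (1.07, adjusted p = 0.331). TPM scaling ended the aorta and spleen calls (adjusted p = 0.127 and 0.0808). The fourth gene, ATP9B, had 11 reads in 5 libraries.

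Copper pumps and P5 ATPases did not reach the filter. ATP7A, the copper pump mutated in Menkes disease, had 12 reads in 8 libraries and no library above 0.675 FPKM. ATP7B, that of Wilson disease and known from liver, had 1 read in lung and 2 in spleen and none in liver. ATP13A3, a polyamine transporter, had 25 reads in 15 libraries with at most 1.71 FPKM, in liver replicate 2, and ATP13A1 had a single read.

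Of the tested lipid transporters of subfamily A, ABCA1 was called higher in liver (background 9.81%), ABCA2 in brain (background 23.9%) and ABCA5 in lung (background 11.9%). ABCA1, which loads cholesterol onto apolipoprotein A-I, was at 23.0, 29.9 and 29.2 FPKM in liver on 50 to 67 reads per library. Aorta followed with 10.4, 3.13 and 10.2 FPKM, and stomach was lowest with 1.64, 1.45 and 1.07 FPKM. The liver libraries lay above all others, with a difference of 2.73 ± 0.27 (adjusted p = 6.59e-08). ABCA1 was called lower in stomach (-1.35, adjusted p = 0.000642) and in heart (-1.04, adjusted p = 0.00342), where the difference was under 1 without heart replicate 1 (-0.98) or 2 (-0.97) and without aorta replicates 1 and 3 together (-0.90), and was lost with median-ratio scaling (-0.65, adjusted p = 0.0534).

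ABCA2, a lipid transporter known from oligodendrocytes, was at 20.3, 25.3 and 20.9 FPKM in brain on 98 to 135 reads per library. The next tissue was lung with 7.56, 8.97 and 4.25 FPKM, and no library outside brain reached 9 FPKM. The brain difference was 2.30 ± 0.28 (adjusted p = 5.85e-07). The lower calls in spleen (-1.28, adjusted p = 0.000975) and heart (-1.09, adjusted p = 0.00359) were lost without the brain libraries (-0.97 and -0.78), and that of heart also without heart replicate 2 (-0.92) and with median-ratio scaling (-0.71). ABCA5 was at 4.36, 5.11 and 3.51 FPKM in lung and was called higher there (1.44 ± 0.25, adjusted p = 0.000173). Brain followed with 2.73, 3.78 and 2.67 FPKM, overlapped lung and did not differ from it beyond the spread (0.39, adjusted p = 0.38). The fourth gene, ABCA4, had 1 read.

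The promoters of the elevated ABC genes with a RefSeq entry are shown for comparison with those of the calcium pumps, 1 of a brain gene and 2 of liver genes. They lie at chr2:25428349-25428648 on the + strand (Abca2), chr4:53159846-53160145 on the - strand (Abca1) and chr5:8893471-8893770 on the + strand (Abcb4) of GRCm38.p6, with the same motifs in capitals.
Abca2: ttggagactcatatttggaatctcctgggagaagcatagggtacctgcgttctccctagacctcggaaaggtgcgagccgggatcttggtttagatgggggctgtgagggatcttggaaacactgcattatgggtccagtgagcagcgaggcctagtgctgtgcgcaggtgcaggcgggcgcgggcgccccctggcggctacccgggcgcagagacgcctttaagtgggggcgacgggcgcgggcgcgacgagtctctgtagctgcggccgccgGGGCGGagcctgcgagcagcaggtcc
Abca1: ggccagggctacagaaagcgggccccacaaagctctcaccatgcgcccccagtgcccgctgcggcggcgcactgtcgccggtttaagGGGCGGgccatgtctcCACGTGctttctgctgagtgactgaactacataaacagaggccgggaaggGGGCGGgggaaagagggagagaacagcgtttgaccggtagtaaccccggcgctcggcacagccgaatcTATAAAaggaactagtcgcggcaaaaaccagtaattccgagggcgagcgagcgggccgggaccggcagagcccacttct
Abcb4: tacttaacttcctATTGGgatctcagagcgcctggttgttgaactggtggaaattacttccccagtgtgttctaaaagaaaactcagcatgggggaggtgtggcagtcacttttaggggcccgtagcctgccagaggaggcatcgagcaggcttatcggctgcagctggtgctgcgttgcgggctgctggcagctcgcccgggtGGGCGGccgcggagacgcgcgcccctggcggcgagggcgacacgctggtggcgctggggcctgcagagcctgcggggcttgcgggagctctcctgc
Each holds a GC box, 1 in Abca2, 2 in Abca1 and 1 in Abcb4. Abca1 also holds 1 TATA box and 1 E-box, and Abcb4 1 CCAAT box on the reverse strand. The median GC content of the 46 windows was 62.8%, against 52.7% over the table, and the 5 printed windows ran from 62.7% to 79.3%.

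In subfamily B, 3 of 6 genes were tested. ABCB4, the canalicular phosphatidylcholine exporter, had 2, 15 and 6 reads in liver, or 1.20, 8.71 and 3.86 FPKM. Spleen had 0.239, 0.324 and 1.85 FPKM and heart 3 reads, and the other 5 tissues had none. Liver replicate 1 was below the highest spleen library, so the groups overlapped. Liver was above the mean of the other tissues by 2.07 ± 0.28, a description, since 1 library outside liver reached 1 FPKM. ABCB6, a mitochondrial and plasma membrane porphyrin transporter, had 8 reads in all and was called nowhere. ABCB1, ABCB9 and the bile salt pump ABCB11 were not tested, and the 1 read of ABCB11 was in liver.

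ABCC5, an exporter of organic anions and cyclic nucleotides, was called lower in liver, by the largest lower difference of the 27 genes. Its liver libraries had 0, 2 and 2 reads, or 0, 0.779 and 0.864 FPKM, where the other 21 libraries had at least 6.82 FPKM. The liver difference was -3.18 ± 0.19 (adjusted p = 4.99e-11), and liver lay below its nearest neighbour, kidney, by 2.53 (adjusted p = 1.3e-07). ABCC5 was highest in brain at 19.2, 23.4 and 21.0 FPKM (1.26, adjusted p = 7.58e-06), aorta at 21.2, 14.4 and 20.0 FPKM (1.04, adjusted p = 0.0002) and lung at 14.2, 19.9 and 18.6 FPKM (0.96, adjusted p = 0.000532, under the minimum of 1). These 3 tissues overlapped. The aorta difference was under 1 without aorta replicate 1 (0.94) or 3 (0.98) or liver replicate 1 (1.00 when rounded), with TPM scaling (0.98) and without aorta replicates 1 and 3 together (0.71). ABCC3, ABCC8 and ABCC10 had 1 read each.

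ABCD3, which imports fatty acids into peroxisomes, was at 6.64, 31.2 and 35.8 FPKM in liver on 6, 29 and 30 reads. Stomach had 2.37, 13.2 and 9.42 FPKM and kidney 4.18, 4.33 and 13.3 FPKM, both overlapping the lowest liver library. Brain had 1 read in each library and was lowest, at 0.382 ± 0.0201 FPKM (SD, n = 3). ABCD3 was called higher in liver (3.01 ± 0.49, adjusted p = 4.46e-05), a call kept without any of the 24 libraries. The other 5 calls depended on single libraries and on the processing. A pseudocount of 0.1 ended all 5 (adjusted p = 0.0641 to 0.0817), no filter those of heart, kidney, spleen and stomach, median-ratio scaling those of heart, kidney and stomach, TPM scaling those of heart and stomach, voom on recovered reads that of heart, and leaving out the brain libraries those of kidney and stomach. Leaving out aorta replicates 1 and 3 together ended those of heart, kidney and stomach. The higher calls were stomach (1.42, adjusted p = 0.0367), lost without stomach replicate 2 (adjusted p = 0.237) or 3 (adjusted p = 0.162), and kidney (1.29, adjusted p = 0.0481), lost in 16 of 24 fits that left out 1 library, with the lowest difference, 0.81, without kidney replicate 3. The lower calls were brain (-1.46, adjusted p = 0.0175) and spleen (-1.34, adjusted p = 0.0321), each lost without any of its own 3 libraries (adjusted p from 0.058 to 0.174), and heart (-1.26, adjusted p = 0.0419), lost in 9 of 24 such fits, with the difference nearest 0, -0.94, without heart replicate 1. ABCD2, a close relative, had 4 reads and was not tested.

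ABCE1, a ribosome recycling factor without membrane domains, was called in aorta alone, where it was lower. Aorta had 8.06, 7.77 and 4.97 FPKM against means of 12.1 to 33.0 FPKM elsewhere (-1.32 ± 0.33, adjusted p = 0.00416), although lung replicate 3, at 8.01 FPKM, overlapped. Liver and spleen varied most, from 16.0 to 54.4 FPKM and from 13.3 to 44.4 FPKM. The aorta call was lost without aorta replicates 1 and 3 together (-1.15, adjusted p = 0.204). ABCF3 and the sterol and drug transporters ABCG1, ABCG2, ABCG4 and ABCG5 had 1 read each.

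**Figure D5:**
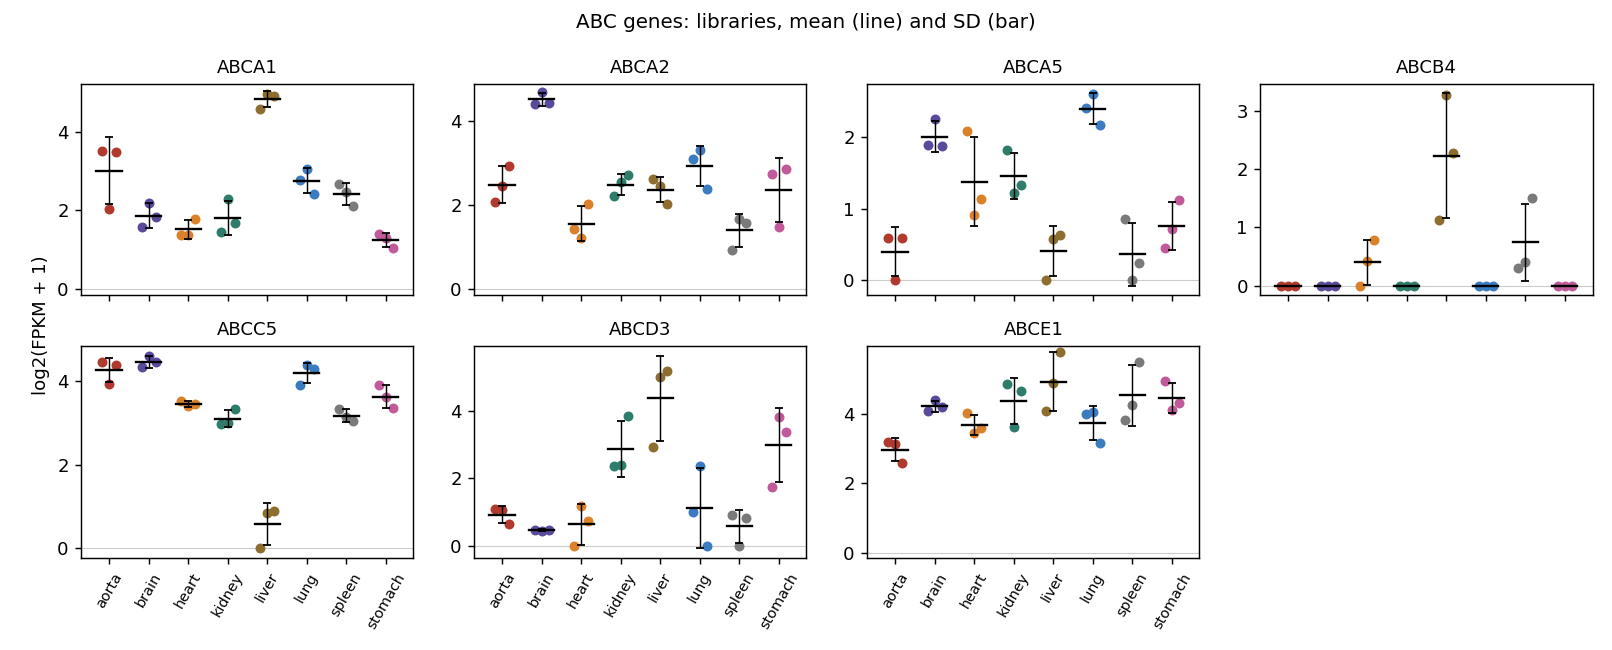
Level of 7 of the 9 tested ABC genes in each tissue as log2(FPKM + 1), with a point per library, a line at the mean and a bar of 1 SD. Liver is highest for ABCA1, ABCB4 and ABCD3 and lowest for ABCC5, brain is highest for ABCA2, and the spread of ABCD3 and ABCE1 within a tissue is wide.

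Genes that work with these pumps were followed in 8 lists, of which 44 of 92 genes were in the table and 26 were tested. In brain 11 of the 26 were called higher (background 23.9%) and 2 lower (10.5%). Stomach had 5 higher (background 7.65%) and 3 lower (5.87%), and kidney 4 higher (9.77%) and 4 lower (8.12%). Aorta had 4 higher (background 9.58%) and 2 lower (8.19%), and heart 3 higher (6.41%) and 5 lower (17.4%). Liver had 2 higher (background 9.81%) and 4 lower (17.3%), spleen 2 higher (11.5%) and 4 lower (13.5%), and lung 2 higher (11.9%) and 2 lower (3.64%). As among the pumps, 6 of the 26 passed the filter only through the tissue in which they were higher: JPH3, JPH4, NKAIN2 and WDR7 in brain, RYR2 in heart and SLC31A1 in liver. Their differences are descriptions as well, and the counts that include them, above and by list below, support nothing about the partner genes. Of sodium pump partners, ATP1B1, the beta1 subunit, was at 7745 ± 408 FPKM in kidney, 3549 ± 432 FPKM in brain and 2849 ± 395 FPKM in stomach, against 41.8 ± 20.8 FPKM in spleen (SD, n = 3). It was called higher in kidney (4.01, adjusted p = 3.94e-10), brain (2.72, adjusted p = 1.8e-08) and stomach (2.36, adjusted p = 1.11e-06), and lower in spleen (-4.73, adjusted p = 3.11e-11), aorta (-3.67, adjusted p = 1.7e-09) and liver (-1.75, adjusted p = 1.84e-05). NKAIN2, a protein that binds the beta1 subunit, was above the other tissues by 4.12 in brain.

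Of 10 tested genes of calcium stores and exchange, 6 were called higher in brain (background 23.9%) and 1 lower (10.5%). In heart 2 were called higher (6.41%) and 4 lower (17.4%). Among the higher were JPH3 and JPH4 in brain and RYR2 in heart, each of which passed the filter only through that tissue. The junctophilins JPH3 and JPH4, which tether the endoplasmic reticulum to the plasma membrane, stood 6.45 and 5.19 above the other tissues in brain. RYR2, the release channel of heart that works opposite SERCA2, stood 4.22 above the other tissues in heart, at 22.6 ± 4.64 FPKM there and 1.91 ± 1.08 FPKM in brain. NPTN, a subunit of plasma membrane calcium pumps, was higher in brain (1.80, adjusted p = 2.52e-12) and aorta (1.33, adjusted p = 3.79e-09) and lower in heart (-1.28, adjusted p = 3.61e-09) and liver (-1.04, adjusted p = 5.89e-08).

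Of 6 tested V-ATPase factors, 3 were called higher in brain (background 23.9%). They were DMXL2 (2.43, adjusted p = 6.79e-07), OXR1 (1.71, adjusted p = 0.0005) and WDR7, which passed the filter only through brain. In kidney 2 were higher (background 9.77%), DMXL2 (1.12, adjusted p = 0.00632) and DMXL1 (1.29, adjusted p = 0.000778). DMXL2 was lower in spleen (-1.51, adjusted p = 0.000412) and stomach (-1.20, adjusted p = 0.00483). OXR1 was higher in lung (1.08, adjusted p = 0.0283) and lower in kidney (-2.22, adjusted p = 7.71e-05). MITF, a regulator of lysosomal genes, was higher in heart (1.93, adjusted p = 0.000258) and stomach (1.25, adjusted p = 0.0149) and lower in lung (-1.01, adjusted p = 0.041). TFEB, also of these 6 genes, was higher in spleen (1.53, adjusted p = 0.00133). Of the tested flippase genes and subunits outside the symbol rule, ATP11B (1.04, adjusted p = 0.0079) and the flippase subunit TMEM30B (2.5, adjusted p = 2.36e-06) were higher in stomach, and ATP11B was lower in aorta (-1.13, adjusted p = 0.00345). Of the remaining lists, the copper importer SLC31A1 stood 1.20 above the other tissues in liver, although its F test over tissues did not pass (adjusted p = 0.0618). The sterol receptor NR1H2 was higher in aorta (1.20, adjusted p = 0.00299) and lung (1.06, adjusted p = 0.00829), and no gene of the gastric proton pump or of the channel and antigen peptide list was tested.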

How the data were processed

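RNA of 24 tissue libraries was measured by bulk sequencing. The submitters' processing notes name fastp, a read trimmer, HISAT2, an aligner, HTSeq, a read counter, and the human build GRCh38.p13. The deposited values were FPKM per gene made by the authors, and the sources used here give neither the annotation nor the strand setting. FPKM steps gave whole reads for 99.987% of genes (7492 of 7493, tolerance 1e-06), from 185724 to 628043 reads per library, and 0 columns of other samples were left unused.

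Genes at 1 FPKM or more in at least 3 libraries were fitted with limma (version 3.58.1, R 4.3.3) on log2(FPKM + 1), with 8 tissue means and a trended prior. Each tissue was set against the mean of the other 7, with Benjamini-Hochberg adjustment over all tested genes, and a call needed an adjusted p under 0.05 and a log2 change of 1 or more. Adjusted p-values throughout are from limma, and the fitting was tested on simulated data. The genes, lists and tests were chosen with earlier results of these data known. The rule for named genes took those elevated or depleted, the 3 largest called differences per tissue and direction, all Na,K-ATPase, SERCA, PMCA and copper pump genes, the 3 highest means of each role group and the 3 largest differences of each partner list; other genes were added as examples. Some genes that the rule takes are counted but not reported here. Alternatives were a pseudocount of 0.1 or 5, no filter or a filter of 5 FPKM, TPM and median-ratio scaling, a replicate block, voom on the recovered reads, no minimum difference, each library left out, and aorta replicates 1 and 3 left out together. Leaving out the brain libraries was chosen after seeing the data. Promoters came from RefSeq (GRCm38.p6), and shared stretches from GENCODE vM21 transcripts.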

Additional observations from a re-analysis of the deposited data

How the results depend on the processing

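None of the 66 calls of a gene in a tissue changed direction under any alternative. Of them, 43 were kept whichever library was left out, 34 under every setting but a pseudocount of 5, and 19 under all. A call counted as kept under a setting that did not test its gene or tissue, as with ATP2B3 in the fits without a brain library. With a pseudocount of 5 the number of genes called was 2 of 6 in aorta, 6 of 12 in brain, 2 of 9 in heart, 4 of 7 in kidney, 5 of 13 in liver, 2 of 5 in lung, 2 of 7 in spleen and 1 of 7 in stomach, and 7 of 13 genes were elevated. A pseudocount of 0.1 gave 9 in lung. A filter of 5 FPKM, which tests fewer genes, gave 3 in lung and 7 elevated. Voom on recovered reads gave 10 in aorta, 19 in brain, 10 in lung and 13 in spleen. No minimum difference gave 10 in aorta, 14 in kidney, 8 in lung, 13 in spleen and 2 depleted. Median-ratio scaling gave 5 in heart, and leaving out aorta replicates 1 and 3 together gave 3 in aorta. Leaving out 1 library gave 5 to 6 in aorta, 11 to 14 in brain, 5 to 9 in heart (5 without heart replicate 2), 6 to 8 in kidney, 11 to 13 in liver, 4 to 6 in lung, 4 to 7 in spleen (4 without spleen replicate 2), 6 to 8 in stomach, 10 to 14 elevated and 1 to 2 depleted (2 without heart replicate 2 or kidney replicate 2), and 23 to 25 genes past the F test. Apart from the filter, the cause was not tested. Within counts by direction, the 5 higher in kidney were 3 without kidney replicate 3, the 7 lower in heart 4 without heart replicate 2, the 6 lower in spleen 3 without spleen replicate 2, the 2 higher in heart 1 without heart replicate 1 or 2, the 1 higher in spleen 0 without spleen replicate 1, and the 1 lower in brain 0 without brain replicate 1 or 3. By other settings, the 4 higher in stomach were 2 with median-ratio scaling, with a filter of 5 FPKM and without aorta replicates 1 and 3 together, the 7 lower in heart 3 with median-ratio scaling and 4 without the brain libraries, the 8 lower in liver 5 with voom and without the brain libraries, the 3 lower in aorta 1 without aorta replicates 1 and 3 together and 6 with voom, the 1 higher in spleen 0 with TPM scaling and 2 with voom, the 6 lower in spleen 11 with voom, the 4 higher in lung 8 with a pseudocount of 0.1, 7 with voom and 2 with a filter of 5 FPKM, the 1 lower in lung 3 with voom, the 5 higher and 2 lower in kidney 3 and 4 with a pseudocount of 0.1, and the 1 lower in brain 6 with voom, 3 with a pseudocount of 0.1 and 2 with TPM scaling or without aorta replicates 1 and 3 together. No minimum difference gave more lower calls in aorta (6), brain (3), kidney (8), lung (2), spleen (12) and stomach (5). Without the brain libraries 10 genes were called in liver and 6 in heart. TPM scaling moved the median difference of all genes by 0.30 in brain and -0.18 in aorta, and median-ratio scaling by 0.23 in heart. With a replicate block the same 66 calls were made and every count was unchanged (24 past the F test, 12 in brain, 13 in liver). Same-numbered libraries correlated at -0.0589 to 0.128 over 84 pairs of tissues. Only 2 of them passed the set threshold of 0.1, so the numbers were not taken as pairs. Yet the mean correlation was 0.034 for same numbers and -0.017 for different numbers, and 20 of 24 libraries correlated best with their own number. Whether same-numbered libraries share an animal or a batch was not tested. At the depth of liver, 3 reads were worth up to 2.32 FPKM of ATP8B1, so low genes listed at 0 there may be present below it.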
